A study of Mus musculus with 58 samples.

Results

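The regions described here are long autosomal stretches of the mouse genome in which acetylation of histone H3 at lysine 27 (H3K27ac) was lower in Setd2-/- than in Setd2+/- full-grown oocytes. They were chosen from the signal itself. Each autosome was divided into windows of 5 kb, and a window was kept when its mean over both genotypes was 0.379 RPKM or more, which is the genome-wide mean, and its knockout signal was at least 2-fold lower. The fold was taken as the log2 ratio of RPKM + 0.1, with a limit of -1, and this pseudocount understates the difference of low windows. RPKM is a read density relative to bin length and library size. Adjacent kept windows were merged, and runs of 6 windows (30 kb) or more were retained. This gave 293 stretches out of 17286 autosomal runs of lower windows of any length. Of the 204480 autosomal windows past the filter, 13.5% were called lower, and the 2096 windows of the stretches were 7.60% of those called.

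Chromatin was immunoprecipitated with an H3K27ac antibody and sequenced by STAR ChIP-seq, which suits small numbers of cells, as part of a series of 58 samples of oocytes, embryos, sperm and embryonic stem cells. The control group was FGO (full-grown oocytes) with the genotype Setd2+/-, and the other group was FGO with the genotype Setd2-/-, from mice with a maternal knockout of Setd2. The females were 8 weeks old, and the labels' protocol for all oocytes and embryos names injection with PMSG and hCG. The sources used here do not give the promoter or Cre that drives the deletion, the strain, or the number of animals and oocytes. Each genotype had 2 replicates, which the authors pooled into 1 track, so no spread between replicates could be measured and no test was possible. A lower signal in every oocyte and a missing signal in some of them cannot be told apart in such a pool. Depth was similar, with 30694806 control reads and 29367645 knockout reads by the size of the steps between deposited values. The other 54 samples were not analysed here.

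SETD2 is the methyltransferase that places trimethylation on lysine 36 of histone H3 (H3K36me3) along transcribed gene bodies, where it travels with elongating RNA polymerase II. H3K27ac is placed by the acetyltransferases CBP and p300 and marks active promoters and enhancers. It occupies the same residue as H3K27me3, the mark of Polycomb repression, so that a histone tail can carry only one of them at this position. In somatic cells H3K27ac is mostly found in narrow peaks, whereas oocytes are known for broad domains of another active mark, H3K4me3, outside promoters. Full-grown oocytes have nearly stopped transcription.

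In the control pool the stretches were regions of raised H3K27ac, and in the knockout pool they lay near the ordinary level of the autosomes. Over all 293 stretches, which covered 10.48 Mb, control averaged 0.877 RPKM and knockout 0.219 RPKM. These levels were 2.34 times the autosomal mean of the control pool and 0.566 times that of the knockout pool. The knockout over control ratio of the summed signal was 0.250, a 4.01-fold difference, with an interval of 0.248 to 0.252 from counting error alone. Since these values chose the stretches, they are a description and support nothing further.

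**Figure D1:**
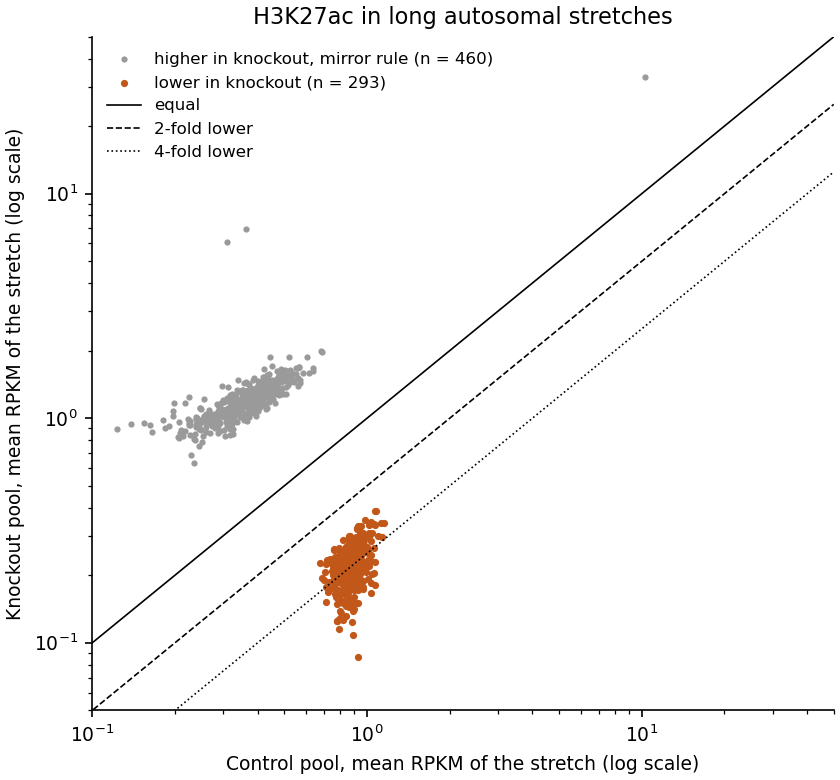
Mean H3K27ac of each long autosomal stretch in the control pool (horizontal axis, RPKM, log scale) and in the knockout pool (vertical axis, RPKM, log scale); each point is 1 stretch, and lines mark equal signal and 2-fold and 4-fold lower signal. The 293 lower stretches form a compact group between 0.674 and 1.15 RPKM in control, and the 460 stretches of the mirror rule lie on the other side of the line of equal signal.

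The stretches resembled each other in their control level more than in their depth. The rule favours this, as it limits control from below and knockout only from above. Knockout reads were also fewer, so counting error weighs more on the depth. Their control means ran from 0.674 to 1.15 RPKM with a median of 0.863, and 262 of the 293 lay between 0.7 and 1 RPKM. The knockout means ran from 0.0861 to 0.387 RPKM with a median of 0.219. Among all autosomal 5 kb windows of the same pool, the control means ranked at the 91.4th percentile by their median and the knockout means at the 47.3rd. In 196 stretches the knockout mean was below the autosomal median of the knockout pool, 0.238 RPKM. The ratio ran from 0.0931 to 0.362, and it was below 0.25 in 147 stretches and below 0.125 in 2. The highest knockout mean was below the lowest control mean, a gap that the rule favours.

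Most stretches were short runs just past the length limit. Of the 293, 148 were exactly 30 kb long, 48 reached 45 kb and 27 reached 50 kb. The choice of members depends on where windows begin: with windows shifted by 2.5 kb there were 279 stretches, and they covered at least 50% of the length of only 160 of the 293. Runs of 5 windows, which just missed the limit, numbered 283, and their median of 0.858 RPKM in control and 0.226 RPKM in knockout was close to that of the 148 runs of 6 windows, with 0.856 and 0.220 RPKM. At the ratio limit, 4229 autosomal windows had log2 ratios from -1.1 to -1, with medians of 0.744 RPKM in control and 0.306 RPKM in knockout. Just outside it, 4710 windows had log2 ratios between -1 and -0.9, with medians of 0.737 and 0.333 RPKM. Of the windows inside the stretches, 5.82% had log2 ratios from -1.1 to -1, beside 4229 of all 27583 autosomal lower windows. Run length and ratio both belong to the rule, so this is a description. The median ratio was 0.262 for stretches of 30 kb, 0.247 for those of 35 to 40 kb and 0.233 for those of 45 to 70 kb, and the ranges of the 3 classes overlapped widely.

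The longest stretch was chr4:108155001-108225000 (build mm9, as all coordinates here), 70 kb long. Its 2065 control reads gave a mean of 0.962 RPKM and its 561 knockout reads a mean of 0.273 RPKM. This is a ratio of 0.283, with a 95% exact binomial (Clopper-Pearson) interval of 0.258 to 0.312. Such intervals cover counting error only and do not allow for the choice of the stretch. Its 14 windows ran from 0.686 to 1.47 RPKM in control and from 0.136 to 0.456 RPKM in knockout, so that no knockout window reached the lowest control window. Knockout signal was 0.211 RPKM in the last window at its right end and 0.994 RPKM in the window beyond, where control had 1.16 and 1.07 RPKM. A long stretch of the opposite kind, chr4:108275001-108305000, began 50 kb beyond that end. It had 0.387 RPKM in the control pool and 1.31 RPKM in the knockout pool. It was the closest such neighbour of any stretch.

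The next longest stretches, of 60 and 65 kb, were on chromosomes 1, 4, 16, 5 and 2. On chromosome 1, chr1:68090001-68155000 spanned 65 kb and had a control mean of 0.843 and a knockout mean of 0.173 RPKM, a ratio of 0.205 (0.182 to 0.232). Also 65 kb long, chr1:67465001-67530000 had 0.772 and 0.161 RPKM, a ratio of 0.208 (0.184 to 0.236). These belonged to a group of 4 stretches within 1085 kb, together with chr1:67190001-67250000, at 0.850 and 0.205 RPKM, and chr1:68240001-68275000, at 0.829 and 0.229 RPKM. The windows between these 4 were also lower in knockout, at 0.293 RPKM against 0.580 RPKM in control. On chromosome 4, chr4:23220001-23285000 spanned 65 kb, with 0.939 RPKM in control against 0.242 RPKM in knockout. The stretches of 60 kb were chr16:75115001-75175000, chr5:16295001-16355000, chr2:12360001-12420000 and chr5:47700001-47760000, beside the one of chromosome 1. Their ratios, 0.241 to 0.261, differed by less than the width of their counting intervals. Of the 7 stretches of 55 kb, the one with the lowest ratio was chr12:38805001-38860000, at 0.183 (0.160 to 0.211), from a control mean of 0.833 RPKM and a knockout mean of 0.153 RPKM.

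**Figure D2:**
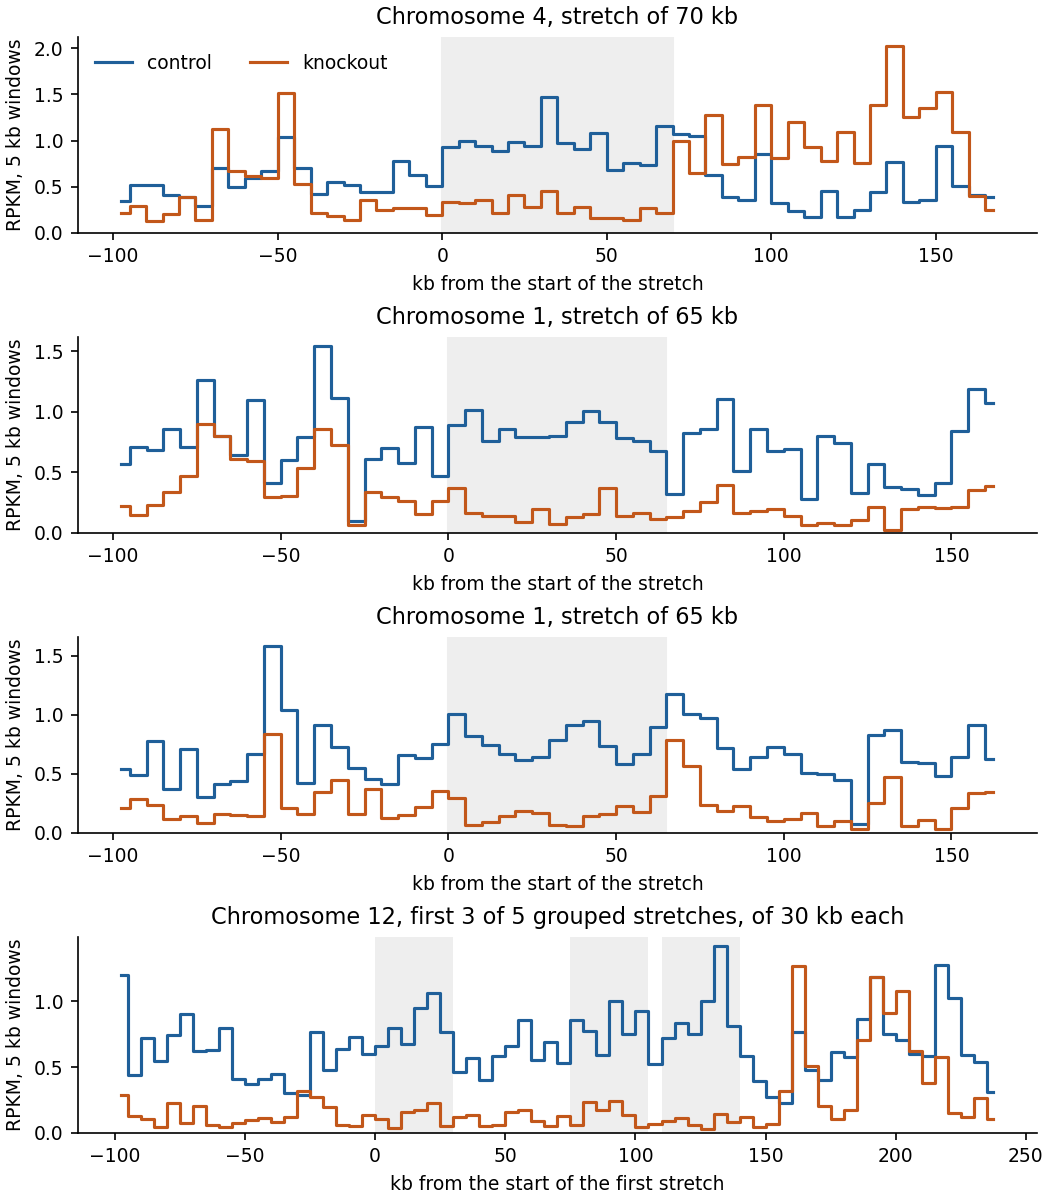
H3K27ac in 5 kb windows (vertical axes, RPKM) along the 3 longest stretches and the first 3 of the 5 grouped stretches of chromosome 12 that include the one with the lowest ratio, by distance in kb from the start of the first stretch shown; blue is the control pool, orange the knockout pool, and grey marks the windows of the stretches. In the stretch of 70 kb on chromosome 4 the knockout signal returns to 0.994 RPKM in the first window past its end, and on chromosome 12 it stays at 0.245 RPKM or less through the 3 grey parts and the gaps between them.

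The deepest stretches came from chromosomes 12 and 18. The lowest ratio was that of chr12:90445001-90475000, where 851 control reads stood against 76 knockout reads, or 0.925 and 0.0861 RPKM. Its ratio of 0.0931 (0.0728 to 0.118) is a 10.7-fold difference. Each of its 6 windows had a log2 ratio of -2.12 or less, and the lowest, -3.12, came from 154 control reads and 4 knockout reads. Both neighbours on its left were among the stretches too. The adjoining chr12:90410001-90440000, 5 kb away, had 0.819 and 0.150 RPKM, and chr12:90335001-90365000 had 0.816 and 0.126 RPKM, the fifth lowest ratio at 0.154. The 5 kb between the deepest stretch and the adjoining one failed the level filter alone, as their log2 ratio was -1.89, from 0.522 RPKM in control against 0.0680 RPKM in knockout.

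On chromosome 18, chr18:71895001-71930000 had a control mean of 0.893 RPKM, a knockout mean of 0.109 RPKM and a ratio of 0.122 (0.0996 to 0.149), and none of its 7 windows had a log2 ratio above -2.03. The next stretch of that chromosome, chr18:72085001-72115000, 155 kb away, had 0.879 and 0.124 RPKM, a ratio of 0.140. The fourth lowest ratio was again on chromosome 12, at chr12:49110001-49140000, with 0.790 and 0.116 RPKM and a ratio of 0.146. Thus 3 of the 5 lowest ratios were on chromosome 12 and the other two on chromosome 18.

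At the other end, the 5 shallowest stretches had a high knockout rather than a low control level. The rule favours this, since with its pseudocount the highest ratio it allows rises with the control level. The highest ratio was that of chr2:82100001-82145000, with 1.07 RPKM in control against 0.386 RPKM in knockout, a ratio of 0.362 (0.327 to 0.402). It was followed by chr7:94570001-94600000 (0.360), chr5:49825001-49855000 (0.357), chr16:62890001-62930000 (0.357) and chr11:39435001-39465000 (0.355). The control means of these 5 lay between 0.916 and 1.07 RPKM, above the median of all stretches. The stretch with the lowest control mean, chr5:76735001-76765000, was also shallow, with a ratio of 0.336.

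The highest control mean, 1.15 RPKM, was that of chr13:5505001-5535000, whose knockout mean was 0.342 RPKM. In this stretch 1 bin of 100 bp held 123 reads, or 11.6% of its control reads, and its ratio, 0.298, was 0.329 when each bin was limited to 10 reads. No other stretch had over 5% of its control reads in 1 bin. High control means were also found at chr14:92395001-92430000 (1.13 RPKM) and chr4:38195001-38225000 (1.12 RPKM). The lowest control means were those of chr5:76735001-76765000 (0.674 RPKM), chr3:75785001-75815000 (0.688 RPKM) and chr6:106785001-106815000 (0.698 RPKM). Control level among the members thus spanned less than a 2-fold range, and their depth spanned more, a difference that the rule favours.

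Inside the stretches the control signal was nearly continuous and the knockout signal was sparse, a contrast that the rule favours. A median of 79.7% of the 100 bp bins of a stretch held control reads and 26.0% held knockout reads, against 44.0% and 33.6% of all autosomal bins. The knockout pool thus filled fewer bins over the autosomes as a whole too. The longest run of empty bins in a stretch had a median of 500 bp in control and 2000 bp in knockout. The longest of all, 5000 bp, was found in knockout at chr3:148335001-148365000. Of the 10480 segments of 1 kb inside the stretches, 1096 (10.5%) had no knockout read and 26 (0.248%) no control read. Over all windows past the filter these shares were 1.82% and 0.768%.

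Residual peaks of knockout signal were rare, which the rule favours. It keeps windows with low knockout signal, and the highest inside the stretches had 0.626 RPKM in knockout. Segments of 1 kb at or above 3 times the genome-wide mean (1.14 RPKM) numbered 2192 in control (20.9%) and 19 in knockout (0.181%). Over all windows past the filter, 10.5% of the segments were that rich in control and 18.9% in knockout. The 19 rich knockout segments lay in 17 stretches. Of the 10480 segments, 238 (2.27%) had more knockout than control signal, and 134 stretches had no such segment. The difference did not rest on single rich bins. The richest bin of a stretch held a median of 1.46% of its control reads, and with each bin limited to 10 reads the ratio of the summed signal was 0.251.

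Window to window, the knockout signal varied more than the control signal in 286 of the 293 stretches. The coefficient of variation over the windows of a stretch had a median of 0.191 in control and 0.417 in knockout. The knockout pool also had fewer reads in them. From the mean reads per window, counting error alone would give median coefficients of 0.0869 in control and 0.176 in knockout. The source of the remaining variation was not tested. The window with the lowest ratio was an inner one in 72.7% of the stretches, and 72.0% of all windows were inner ones. The lowest windows thus lay at the ends and inside about in proportion to the number of windows there.

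The lower signal was not bounded by the stretches. From 5 to 25 kb beyond the edge, control averaged 0.632 RPKM and knockout 0.266 RPKM, a ratio of 0.422. The ratio was 0.462 at 25 to 50 kb from the edge, 0.507 at 50 to 100 kb and 0.574 at 100 to 200 kb, against 1.03 over all autosomal windows. These belts include windows of neighbouring stretches. With all windows of stretches left out and each other window counted once, an alternative added after the values were seen, the 4 ratios were 0.429, 0.483, 0.527 and 0.587. In the belts with neighbouring stretches included, the median log2 ratio was -1.12, -1.01, -0.85 and -0.68, and it was 0.00 over all autosomal windows. From the first to the last of the same belts the control mean went from 0.632 to 0.522 RPKM and the knockout mean from 0.266 to 0.299 RPKM. These belts belong to the same contrast as the rule and are described without a test.

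**Figure D3:**
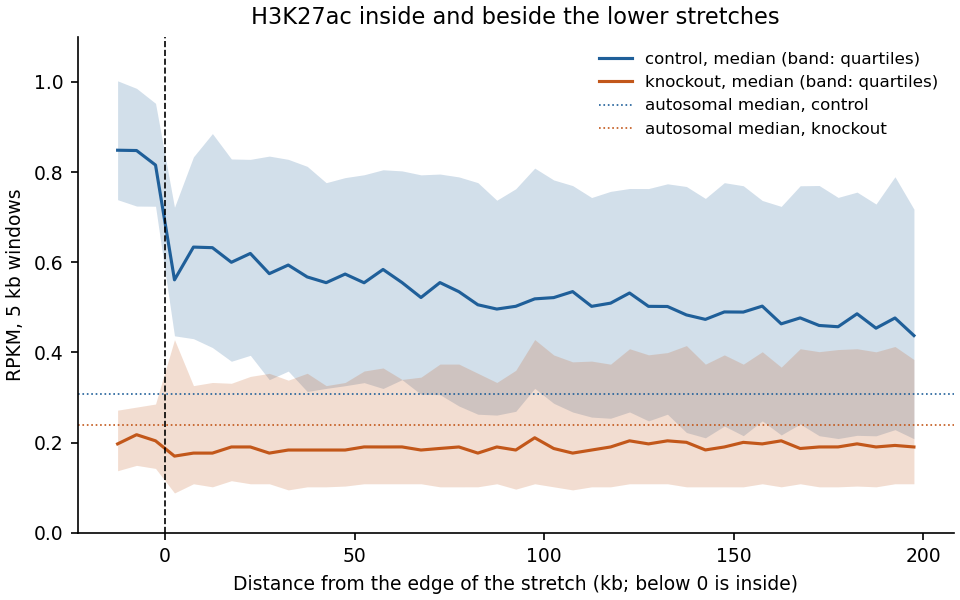
H3K27ac in 5 kb windows (vertical axis, RPKM) by distance from the edge of a stretch (horizontal axis, kb; values below 0 are inside), over 586 edges, windows of neighbouring stretches included; lines are medians, bands span the quartiles and dotted lines are the autosomal medians of each pool. Control steps down at the edge from a median of 0.816 to 0.561 RPKM, partly by construction, as the first window outside failed the rule. It is 0.634 RPKM at 5 to 10 kb and stays above its autosomal median for 200 kb. The knockout median stays under its own at all these distances.

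The edges were set by the level filter more often than by a return of the knockout signal. Of 586 edges, 260 (44.4%) faced a window whose ratio was still past the limit but whose level was below the filter. At these, control went from a median of 0.773 RPKM inside to 0.522 RPKM outside and knockout from 0.167 to 0.0952 RPKM. Another 98 edges (16.7%) faced a window that missed both conditions, where control went from 0.780 to 0.330 RPKM. At the remaining 228 edges (38.9%) the ratio alone ended the stretch. There the window outside had a median of 0.892 times the control signal of the last window inside and 2.07 times its knockout signal, which went from 0.258 to 0.503 RPKM. The knockout signal was at least 2-fold higher outside than inside at 118 of these 228 edges. With the 98 edges that missed both conditions counted as edges at the filter, both kinds of edge occurred in 136 stretches. Another 111 stretches had only edges at the filter and 46 had only edges at the ratio limit.

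With the level filter dropped at the edges, 193 of the 293 stretches (65.9%) became longer. This extension was chosen after the values were seen. The median length went from 30 to 45 kb, and the 288 distinct extended stretches covered 16.14 Mb instead of 10.48 Mb. Of these, 25 were 100 kb or longer. The longest was chr18:71830001-72140000, 310 kb that held both of the deep chromosome 18 stretches, with a control mean of 0.692 RPKM, a knockout mean of 0.0863 RPKM and a ratio of 0.125. On chromosome 12, chr12:91320001-91600000 spanned 280 kb with 0.692 and 0.119 RPKM, and chr12:90320001-90490000 spanned 170 kb with 0.718 and 0.109 RPKM and held all 3 neighbouring stretches named above. In these extended regions knockout signal was below its autosomal median of 0.238 RPKM as a mean over the length, and control was at more than 2 times its own, 0.307 RPKM.

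The stretches also lay in wider territories of lower signal. In the fixed 1 Mb block around each stretch, with only the stretch itself left out, the median ratio was 0.573, against 1.05 over 2399 autosomal blocks. This block ratio was below 1 for 275 stretches (93.9%) and 0.5 or less for 91 (31.1%). Of all autosomal windows past the filter, 43.0% lay in blocks with a ratio below 1 and 5.11% in blocks at 0.5 or less. Within 1 Mb of a stretch, 27.8% of the other windows past the filter were lower by the 2-fold rule, and farther away 9.46% were. The median log2 ratio of these windows was -0.51 near the stretches and 0.18 elsewhere.

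A minority stood out from surroundings that were higher in knockout. The block ratio was 1 or more for 18 stretches and above 1.2 for 5. The highest was that of chr2:72995001-73045000, whose ratio was 0.335 in a block with 0.467 RPKM in control against 0.643 RPKM in knockout, followed by chr14:100090001-100120000, at 0.242 in a block with 0.131 against 0.180 RPKM. The others were chr5:76735001-76765000, chr6:40715001-40755000 and the 70 kb stretch of chromosome 4. The stretch of chromosome 6 was the deepest of the 5, with a ratio of 0.200.

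Many stretches had another one near. The nearest other stretch was within 1 Mb for 144 of the 293 (49.1%) and within 100 kb for 60, with a median gap of 1010 kb. For comparison, 17.9% of autosomal windows past the filter lay within 1 Mb of a stretch. The mirror rule called 12.1% of autosomal windows past the filter at least 2-fold higher in knockout. Its long stretches also lay near each other, as 278 of 460 (60.4%) had another of their kind within 1 Mb, with a median gap of 470 kb. Joined across gaps of up to 1 Mb, these 144 stretches formed 51 groups, of which 24 held 3 or more. In each of the 51 groups the signal between the stretches was lower in knockout too, with ratios from 0.156 to 0.780 and a median of 0.460.

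The 2 largest groups held 7 stretches each. On chromosome 15, the group from 16240001 to 18525000 spanned 2285 kb, and its whole length averaged 0.613 RPKM in control against 0.266 RPKM in knockout. Of its 255 windows past the filter, 160 were lower by the 2-fold rule and 1 was higher. Its stretches had ratios from 0.204 to 0.332. On chromosome 12, the group from 46805001 to 49230000 spanned 2425 kb, with 0.501 and 0.232 RPKM, and its stretches had ratios from 0.146 to 0.297. The group with the deepest stretch, also on chromosome 12 from 90335001 to 91465000, held 5 stretches, and 93 of its 129 windows past the filter were lower and none was higher. Its members included chr12:90910001-90960000, at 0.973 and 0.265 RPKM, and chr12:91420001-91465000, at 0.795 and 0.139 RPKM.

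Stretches of the opposite kind were seldom close. Only 16 of the 293 lower stretches (5.46%) had a higher stretch within 1 Mb, although 30.3% of autosomal windows past the filter did, and the median gap was 5095 kb. After the one of chromosome 4, the closest neighbours were 200 kb away for chr14:100090001-100120000, 575 kb for chr8:75575001-75605000 and 660 kb for chr7:78235001-78275000. Of the 293 lower stretches, 224 were nearer to another lower stretch than to a higher one. The higher stretches had median levels of 0.369 RPKM in control against 1.19 RPKM in knockout, so that lower stretches were richer in control and higher stretches richer in knockout. This contrast in level follows from the rule.

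All 19 autosomes carried stretches, at uneven density. Chromosome 1 had 29, chromosomes 5 and 12 had 25 each, and chromosomes 2 and 15 had 24 each, whereas chromosomes 9 and 19 had 4 each. Per 10000 windows past the filter, chromosome 12 had 26.1 stretches and chromosome 15 had 25.4, against 14.3 over all autosomes. Chromosome 9 had 3.75, the lowest value, and chromosomes 19, 13, 16 and 7 had 6.88, 7.94, 8.47 and 8.80. These densities were not simply those of lower windows. Chromosome 3 had the largest share of lower windows, 18.1%, but 12.9 stretches per 10000, and chromosome 12 had 14.7% and the highest density of stretches. Stretches held 12.6% of the lower windows of chromosome 12 and 2.99% of those of chromosome 9.

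Depth differed less between chromosomes than number did, and the rule bounds the ratio but not the number. The median ratio of the stretches of a chromosome lay between 0.232 on chromosome 12 and 0.291 on chromosome 16, and the median control mean between 0.833 and 0.925 RPKM. The longest stretch of a chromosome ranged from 35 kb on chromosome 14, at chr14:107515001-107550000, to the 70 kb of chromosome 4. Across the 19 autosomes, the number of stretches per 100 Mb and the number of protein-coding genes per Mb had a Pearson's r of -0.39 and a Spearman's rho of -0.35. Without chromosomes 7 and 11, the farthest in gene density, r was -0.43. Gene numbers came from RefSeq for the GRCm38 assembly, and the chromosomes share the same 2 libraries, so this is a description.

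**Figure D4:**
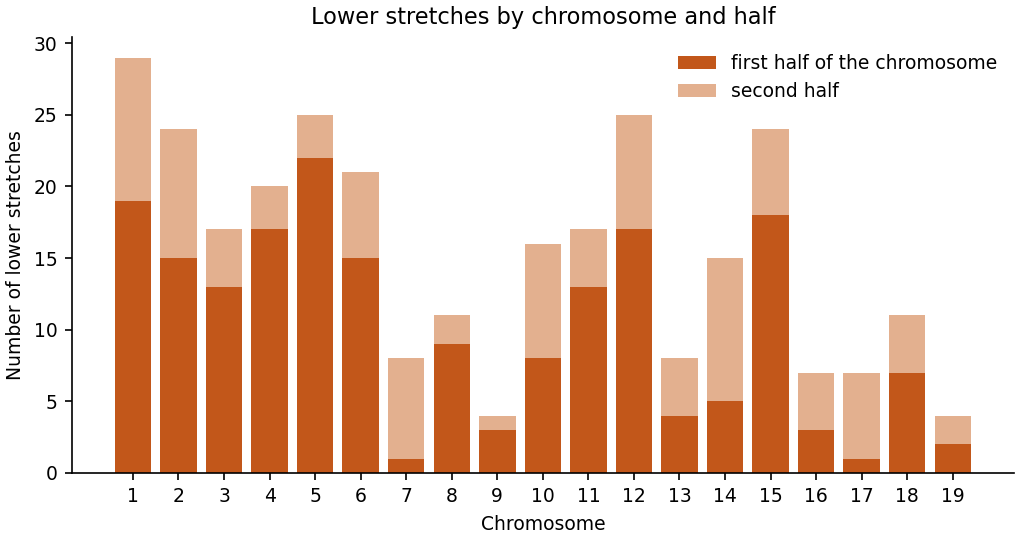
Number of lower stretches (vertical axis) on each autosome (horizontal axis), split into those centred in the first 50% of the chromosome's length (dark) and in the rest (light). Over all autosomes 192 lie in the first 50% and 101 in the rest, and chromosomes 7, 14, 16 and 17 have more in the rest.

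The stretches were more frequent in the first 50% of the length of the chromosomes, counted from the start of the assembled sequence. There were 192 (65.5%) in this part and 101 in the rest, while 50.9% of the autosomal windows past the filter lay in the first part. In successive parts of 25% the counts were 100, 92, 65 and 36, or 34.1%, 31.4%, 22.2% and 12.3%, against shares of windows past the filter of 25.6%, 25.2%, 24.2% and 24.9%. The last 25% of the length thus held the fewest. Single lower windows had the same order, with 16.6%, 15.2%, 13.4% and 8.59% of the windows past the filter in the same parts. Of the 460 higher stretches, 37.6% lay in the first 50% and 41.7% in the last 25%. On 12 chromosomes more lower stretches lay in the first 50%, on chromosomes 10, 13 and 19 both sides were equal, and on chromosomes 7, 14, 16 and 17 more lay in the rest. Chromosome 5 was the most uneven in number, with 22 against 3, and chromosome 17 had 1 against 6. With a pseudocount of 0.5 RPKM in place of 0.1 only 7 stretches were left, and the share in the first 50% was then 42.9%.

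Within the autosomes, the share of windows that belonged to a stretch increased with the control level up to 2 RPKM. The rule favours this, as the control level is part of the ratio. The share higher by the mirror rule was 3.33% at 0.7 to 0.8 RPKM, 0.122% at 1.2 to 1.5 and 1.97% at 1.5 to 2 RPKM. The share in stretches is thus a description only. This share in stretches was 1.79% for windows with 0.7 to 0.8 RPKM in control, 1.99% at 0.8 to 0.9, 2.34% at 1 to 1.2 and 2.54% at 1.2 to 1.5 RPKM. Among the 355 windows with 1.5 to 2 RPKM it was 2.82%, from 10 windows. None of the 37 windows at 2 RPKM or more in control was in a stretch, but these are too few to compare with such shares. Their median knockout signal was 18.0 RPKM, and 59.5% of them were at least 2-fold higher in knockout. The share of windows lower by the 2-fold rule was near 23% from 0.7 to 1.2 RPKM, where it ran from 22.3% to 23.6%, and was 25.5% at 1.2 to 1.5 and 44.8% at 1.5 to 2 RPKM. Below 0.8 RPKM in control the level filter removes windows with little knockout signal, so the shares there are set partly by the rule. The stretches held 211 of the 8391 autosomal windows at or above 3 times the genome-wide mean in control, and these were 10.1% of the windows of the stretches. Of the 8391, 25.3% were lower by the 2-fold rule, against 13.5% of all windows past the filter, which the rule favours too.

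**Figure D5:**
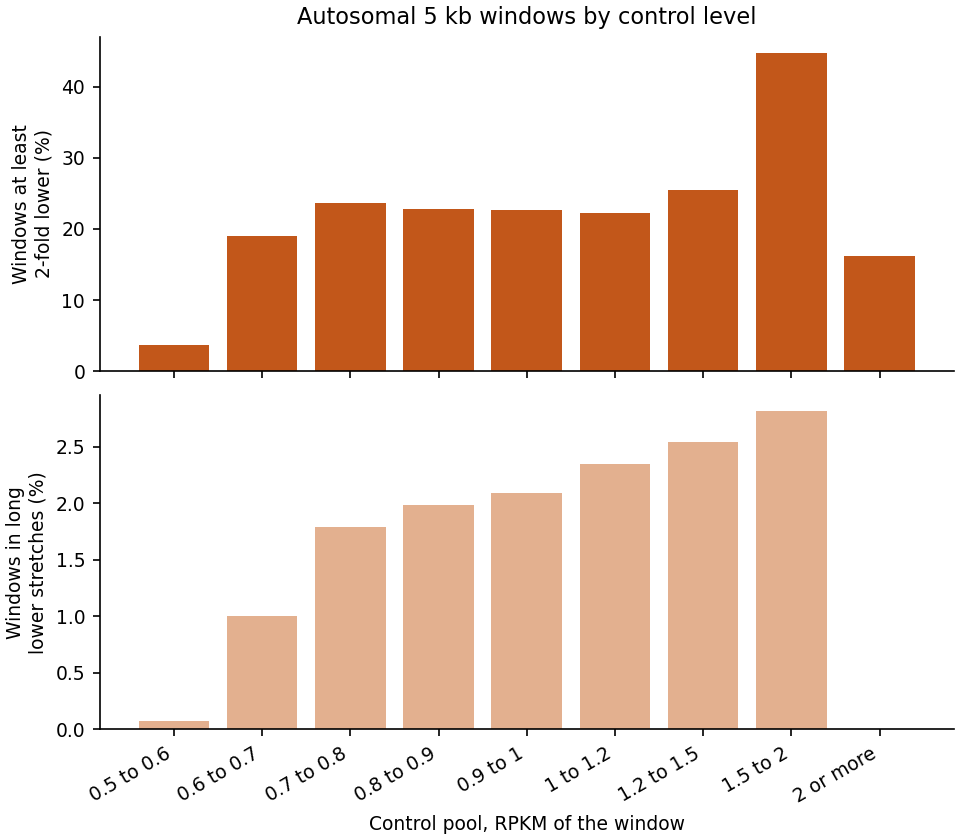
Share of autosomal 5 kb windows that were at least 2-fold lower in knockout (top, percent) and that lay in long lower stretches (bottom, percent), by control level in RPKM. Between 0.7 and 1.5 RPKM the share in stretches goes from 1.79% to 2.54%, which the rule favours, as control level is part of the ratio. The last 2 classes hold 355 and 37 windows, and the level filter acts on the classes below 0.8 RPKM.

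Compared with lower windows outside the stretches, those inside were deeper. Inside, the medians were 0.841 RPKM for control, 0.204 RPKM for knockout and -1.63 for the log2 ratio, and 20.6% of the 2096 windows were at -2 or less. The 25487 lower windows outside had medians of 0.783 and 0.231 RPKM, a median log2 ratio of -1.36, and 8.87% were at -2 or less. Of the autosomal lower windows, 42.3% stood alone with no lower neighbour. Run length and ratio both belong to the rule, so this is given without a test.

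Chromosome X, which is outside the rule, was read the same way for comparison. It had 103 lower stretches, and 42.1% of its 13343 windows past the filter were called lower. Their control means had a median of 0.919 RPKM and their knockout means a median of 0.213 RPKM. The ratio had a median of 0.241 and ran from 0.114 to 0.353, within the range of the autosomal stretches. Their longest reached 75 kb, against 70 kb on the autosomes. Lower stretches of X and autosomes thus overlapped in level, depth and length, which the shared rule favours.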

How the data were processed

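H3K27ac STAR ChIP-seq of full-grown oocytes was analysed from 2 tracks, 1 for each genotype, in which the authors pooled both replicates, per the labels. The authors' deposited values are RPKM per bin of 100 bp with empty bins left out; the unit was read from the values, whose total is that of RPKM over bins of this size. Build mm9 and Bowtie2 2.2.2 are named in the submitters' processing notes. How reads were extended, whether duplicates were removed and whether an input was subtracted is not given in the sources used here; each choice could alter the signal.

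Windows of 5 kb are means of 50 bins, counted from the start of each chromosome. The filter is the genome-wide mean of both pools. All values lay within 0.006 RPKM of a whole multiple of 1 read, worth 0.326 RPKM per bin in control and 0.341 in knockout, and reads recovered from this gave the counting intervals (95%, exact binomial, counting error only). One read is worth 0.00652 and 0.00681 RPKM in a 5 kb window. RPKM is relative to library size, so absolute levels cannot be read from it. With pooled tracks there is no test and no p-value. Named stretches are the 10 longest, the 5 at either end of ratio and of control level, the longest by chromosome, close pairs and the closest to higher stretches; others are named as extremes of a quantity seen afterwards. The members, lists and alternatives were chosen with earlier results of these data known. Alternatives were other pseudocounts, scalings, filters, folds, window sizes and offsets, bridged runs and a limit of 10 reads per bin. The code was tested on simulated data. No genome or annotation of mm9 was used, so no gene, sequence or base composition is given for the stretches. Scripts ran in Python 3.11.15 with pandas 2.3.3 and NumPy 2.4.6; intervals came from SciPy 1.17.1 and plots from matplotlib 3.10.9.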

Additional observations from a re-analysis of the deposited data

How the results depend on the processing

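No paired analysis was possible because each track pools both replicates of a genotype, and leaving out a replicate was not run for that reason. Base composition and gene overlap were not run, as no mm9 genome or annotation was used here. The number of lower stretches, 293, was 314 with autosomal means set equal, 296 when scaled on the poorer windows, 292 with at most 10 reads per bin, 279 with windows shifted by 2.5 kb and 290 with whole reads in place of rounded values, an alternative chosen after seeing the data. The shifted windows covered at least 50% of the length of only 160 of the 293 stretches, whereas the other 4 covered 281 to 291. The number was 452 with a pseudocount of 0.01 RPKM, 7 with 0.5 RPKM, 1584 with no filter, 0 with the filter at 2 times the mean, 953 in windows of 10 kb, 4 in windows of 2 kb, 915 at 1.5-fold, 23 at 3-fold and 1036 with runs that may bridge 1 window. Looser and stricter rules change the number by construction, and for window size the cause was not tested. The number of lower over higher stretches, 0.637, turned to 2.07 with no filter and to 1.35 at 3-fold. It was 0.350 with a pseudocount of 0.5 RPKM, 0 with the filter at 2 times the mean and 0.0833 in windows of 2 kb, and lay between 0.488 and 0.928 under the others. The share of stretches in the first 50% of the chromosome, 65.5%, was 58.1% with no filter, 75% in windows of 2 kb, from 4 stretches, and turned to 42.9% with a pseudocount of 0.5 RPKM, from 7 stretches. Under the others it lay between 62.5% and 65.6%. The ratio of the summed signal, 0.250, was 0.242 with autosomal means set equal and 0.247 when scaled on the poorer windows, and from 0.249 to 0.251 under the others.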
